A study of Sus scrofa with 6 samples.

Results

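The 16 probes described here are those that a 1-colour pig microarray assigns, by RefSeq transcript, to 6 genes of haem handling, oxidant production, arginine use and lipid oxidation. The genes are HMOX1, FLVCR2, GP91-PHOX, CYBA, ARG1 and ALOX15. The 6 genes are among 2382 genes named by a RefSeq transcript, and the 16 probes among 43380 kept for analysis, with 3 probes for HMOX1, 4 for FLVCR2, 2 for GP91-PHOX, 1 for CYBA, 4 for ARG1 and 2 for ALOX15. Each probe was a single spot on each array. The genes were proposed from the difference between the groups, so their differences are given as a description with no test.

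Total RNA came from pig femoral arteries, taken at the puncture site and labelled as ex vivo. In 3 samples the puncture had been treated with TAG, a vascular glue, and in 3 with Exoseal, a marketed vascular closure device. All samples carried the label left for the puncture site. Strain, age, sex, the time of sampling and the animal behind each sample were not given in the sources used here, and there was no unpunctured artery among the samples. Whether the spread behind the p-values is between animals or technical is thus unknown.

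Exoseal replicate 1 carried conflicting labels, since its title and source name said Exoseal and its treatment entry said TAG. It is grouped by its title. This array also shared its scan date entry with the 3 TAG arrays, whereas Exoseal replicates 2 and 3 shared another. Arrays with the same entry are taken here as 1 slide, called slide 1 and slide 2. The slide is thus inferred and not given by the labels, and it overlapped with the treatment. Values within slide 1, which rest on Exoseal replicate 1 alone, and values without that array are therefore given for the probes that differed most.

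HMOX1 encodes haem oxygenase 1, the inducible enzyme that opens the haem ring and releases biliverdin, carbon monoxide and iron. It is known to be abundant in macrophages that clear red cells and haemoglobin, as they do where blood has leaked into tissue. FLVCR2 encodes a membrane transporter first described as a haem importer and later as a choline transporter. GP91-PHOX, also named CYBB, encodes the catalytic subunit of the phagocyte NADPH oxidase, which produces superoxide. CYBA encodes p22-phox, the membrane partner that this subunit needs. ARG1 encodes arginase 1, which splits arginine into ornithine and urea and so draws on the substrate of nitric oxide synthases. ALOX15 encodes a lipoxygenase that adds oxygen to polyunsaturated fatty acids.

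Levels are given as the processed signal divided by the 75th percentile of all probes on the same array, and differences as TAG minus Exoseal on the log2 scale of those levels, with the standard error of the limma fit. A level compares arrays for 1 probe and not 1 probe with another. The TAG arrays were dimmer. Well above background were 41.2%, 36.2% and 34.7% of probes on TAG arrays 1 to 3, against 60.6%, 70.8% and 61.4% on Exoseal arrays 1 to 3. The 75th percentile of the processed signal was 36.4, 25.7 and 19.3 on the TAG arrays and 68.4, 151 and 61.0 on the Exoseal arrays. The fit took the 22722 probes that were well above background on 3 or more arrays, and 2443 of them passed an adjusted p of 0.05 (limma, Benjamini-Hochberg), 1604 higher and 839 lower in TAG. With the slide as a block 2056 probes passed, and within slide 1 2891 did. By limma 0 probes passed in each fit that left out 1 array other than Exoseal replicate 1 (4573 to 6426 with an unadjusted p under 0.05), and 7717 passed without that one.

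Of the 16 probes, 9 were tested, as were 52.4% of all probes kept. In the fit 7 of the 9 passed, 5 lower and 2 higher in TAG, where 10.8% of all tested probes passed (3.69% lower and 7.06% higher). Nothing is read from that count, because the genes were proposed from this contrast. With the slide as a block 4 of the 9 passed, against 9.05% of all tested probes, and within slide 1 6 did, against 12.7%. With Exoseal replicate 1 counted as TAG 1 passed, against 16.6%. Of the 5 lower probes, 3 were above background on no TAG array and were tested through the Exoseal arrays alone, so that their direction was largely set by the filter.

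On each TAG array 6 of the 16 probes were well above background, and these were the same 6 on all 3 arrays. They were above background on the Exoseal arrays too, as were 29.7% of all probes on all 6 arrays. On Exoseal arrays 1 to 3 the numbers were 15, 11 and 10. The remaining 10 probes were above background on no TAG array, as were 55.8% of all probes kept. Of these 10, FLVCR2 probe A_72_P262542 and ARG1 probes A_72_P057696 and A_72_P618995 were above background on all 3 Exoseal arrays, a pattern of 9.58% of all probes. Another 4 of the 10 were above background on Exoseal replicate 1 alone, a pattern of 8.08% of all probes. These were 1 HMOX1 probe, 2 FLVCR2 probes and 1 ARG1 probe.

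**Figure D1:**
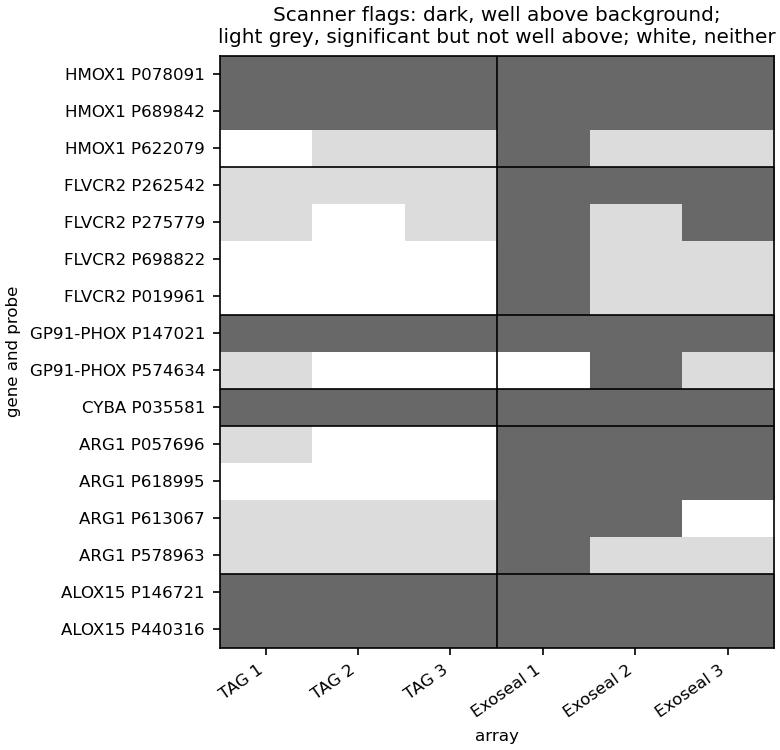
The 16 probes (down) by the 6 arrays (across), with dark cells for probes well above background, light grey for signals the scanner called significant but not well above it, and white for neither. The same 6 probes were above background on each TAG array, against 15, 11 and 10 probes on Exoseal arrays 1 to 3.

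Among the probes above background on all 6 arrays, 1 of the 3 HMOX1 probes had the widest gap between the groups. Probe A_72_P078091 (NM_001004027) had levels of 0.495, 0.887 and 0.967 in TAG arteries, against 6.13, 17.8 and 6.89 in Exoseal arteries, and was above background on all 6 arrays. Every Exoseal artery lay above every TAG artery, and Exoseal replicate 2 was the highest. The mean level was 0.783 ± 0.253 in TAG arteries and 10.3 ± 6.55 in Exoseal arteries (SD, n = 3 each). The difference was -3.60 ± 0.54, or 12.1-fold lower in TAG. It was -3.03 within slide 1 and -3.88 without Exoseal replicate 1. The unscaled processed signals were 18.0, 22.8 and 18.6 in TAG arteries against 419, 2690 and 420 in Exoseal arteries. That gap is no further evidence, because with no scaling the median difference of all tested probes was -1.63. The unscaled signals of CYBA, whose scaled levels overlapped, were apart in the same direction.

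The second HMOX1 probe, A_72_P689842, was likewise above background on all 6 arrays and did not show that pattern. Its levels were 1.70, 0.819 and 2.62 in TAG arteries, against 0.362, 1.56 and 0.522 in Exoseal arteries. The groups overlapped, since Exoseal replicate 2 lay above TAG replicate 2. The difference was 1.21 ± 0.65, opposite in sign to that of the other probe, and it was 2.09 within slide 1 and -0.50 with no scaling between the arrays. Leaving out each array gave 0.77 (without Exoseal replicate 1) to 1.83 (without Exoseal replicate 2). Both probes placed the 3 Exoseal arteries in the same order, with replicate 2 highest and replicate 1 lowest. The third probe, A_72_P622079, was above background on Exoseal replicate 1 alone, with a level of 1.11 there, so it gives no comparison. Over the 6 arrays the first 2 probes correlated at r = -0.42, and the mean of these 2 differed by -1.19. Among 732 named genes with more than 1 tested probe, 52.6% had probes that differed in sign. That share counts differences of any size and genes with any number of probes above 1. It does not show whether a disagreement as wide as that within HMOX1 was usual on this array.

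FLVCR2 was well above background in Exoseal arteries and on no TAG array. Probe A_72_P262542 (NM_001142840) had levels of 0.295, 0.360 and 0.126 in TAG arteries, none well above background, against 2.50, 1.96 and 1.36 in Exoseal arteries, all above it. For a probe with no TAG array above background the level there is a bound. It was set by the lowest signal well above background of any probe on each array, or by the probe's own signal where higher. This limit is approximate. On TAG replicate 2 the signal of this probe, 9.26, exceeded that lowest signal, 9.25, and was still not flagged. On that basis the probe was at least about 5.06-fold lower in TAG, and at least about 6.72-fold lower within slide 1. Leaving out each array in turn gave bounds between 4.39 and 5.96.

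The other 3 FLVCR2 probes were dim. Probe A_72_P275779 was above background on Exoseal replicates 1 and 3, with levels of 0.842 and 0.112. Probes A_72_P698822 and A_72_P019961 were above it on Exoseal replicate 1 alone, at 0.291 and 0.300. On Exoseal replicate 2, where the first FLVCR2 probe was well measured, none of these 3 was above background. The lower FLVCR2 level in TAG therefore rests on 1 probe of 4.

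The catalytic subunit of the phagocyte oxidase was lower in TAG. GP91-PHOX probe A_72_P147021 (NM_214043) had levels of 1.59, 2.91 and 1.65 in TAG arteries, against 8.74, 13.0 and 4.93 in Exoseal arteries, above background on all 6 arrays. The groups did not overlap. The mean level was 2.05 ± 0.742 in TAG arteries and 8.90 ± 4.05 in Exoseal arteries (SD, n = 3 each). The difference was -2.07 ± 0.51, or 4.19-fold lower in TAG, with -2.15 within slide 1 and -2.03 without Exoseal replicate 1. The second GP91-PHOX probe, A_72_P574634, was above background only on Exoseal replicate 2, at 0.0693, and gives no comparison.

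CYBA, the partner subunit, was above background on all 6 arrays and did not separate the groups. Its single probe A_72_P035581 (NM_214267) had levels of 6.24, 10.5 and 10.4 in TAG arteries, against 23.9, 16.9 and 9.28 in Exoseal arteries. Exoseal replicate 3 lay below TAG replicates 2 and 3. The difference was -0.82 ± 0.50, with -1.44 within slide 1, -0.51 without Exoseal replicate 1 and -0.15 with that array counted as TAG. CYBA and GP91-PHOX were thus both lower in TAG on average, and whether the 2 differences differ from each other was not tested.

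ARG1 resembled FLVCR2 in that all 4 of its probes were below the background limit on every TAG array. Probe A_72_P057696 (NM_214048) had levels of 0.176, 0.0984 and 0.112 in TAG arteries, against 2.59, 2.57 and 0.389 in Exoseal arteries. Exoseal replicate 3 was well below the other Exoseal arteries, and with no TAG array measured its rank against the TAG arteries is not known. By the same approximate bound the probe was at least about 3.69-fold lower in TAG. The bound depended on that array and was 6.94 without Exoseal replicate 3, 2.69 without Exoseal replicate 1, 2.70 without Exoseal replicate 2 and 6.97 within slide 1.

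Probe A_72_P618995 was above background on all 3 Exoseal arrays too, with levels of 0.0785, 0.0988 and 0.122 in TAG arteries against 0.299, 0.221 and 0.394 in Exoseal arteries. The TAG values are below background, and the bound for this probe was 0.80. The background limit of the TAG arrays thus lay above the Exoseal levels on average, so this probe gives neither a fold nor a direction. It ranked Exoseal replicate 3 highest, where A_72_P057696 ranked it lowest. Probes A_72_P613067 and A_72_P578963 were above background on Exoseal replicates 1 and 2 and on Exoseal replicate 1, with levels of 0.311 and 0.0852 for the first and 0.312 for the second.

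ALOX15 ran the other way, and both of its probes were tested and had the same direction. Probe A_72_P146721 (NM_213931) had levels of 6.89, 12.4 and 7.65 in TAG arteries, against 1.66, 2.10 and 2.42 in Exoseal arteries. Probe A_72_P440316 had levels of 0.862, 0.851 and 0.638 in TAG arteries, against 0.237, 0.196 and 0.361 in Exoseal arteries. For both probes all 6 arrays were above background and the groups did not overlap. The differences were 2.09 ± 0.44, or 4.26-fold higher in TAG, and 1.60 ± 0.44, or 3.03-fold higher. Within slide 1 they were 2.38 and 1.71, and without Exoseal replicate 1 they were 1.94 and 1.55.

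The higher ALOX15 level in TAG is a level relative to the rest of each array. The unscaled processed signal of A_72_P146721 was 251, 319 and 148 in TAG arteries, against 114, 316 and 148 in Exoseal arteries, and overlapped. With no scaling the differences were 0.38 and -0.11 for the 2 ALOX15 probes, while the median of all tested probes was -1.63. With scaling that median was 0.08.

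**Figure D2:**
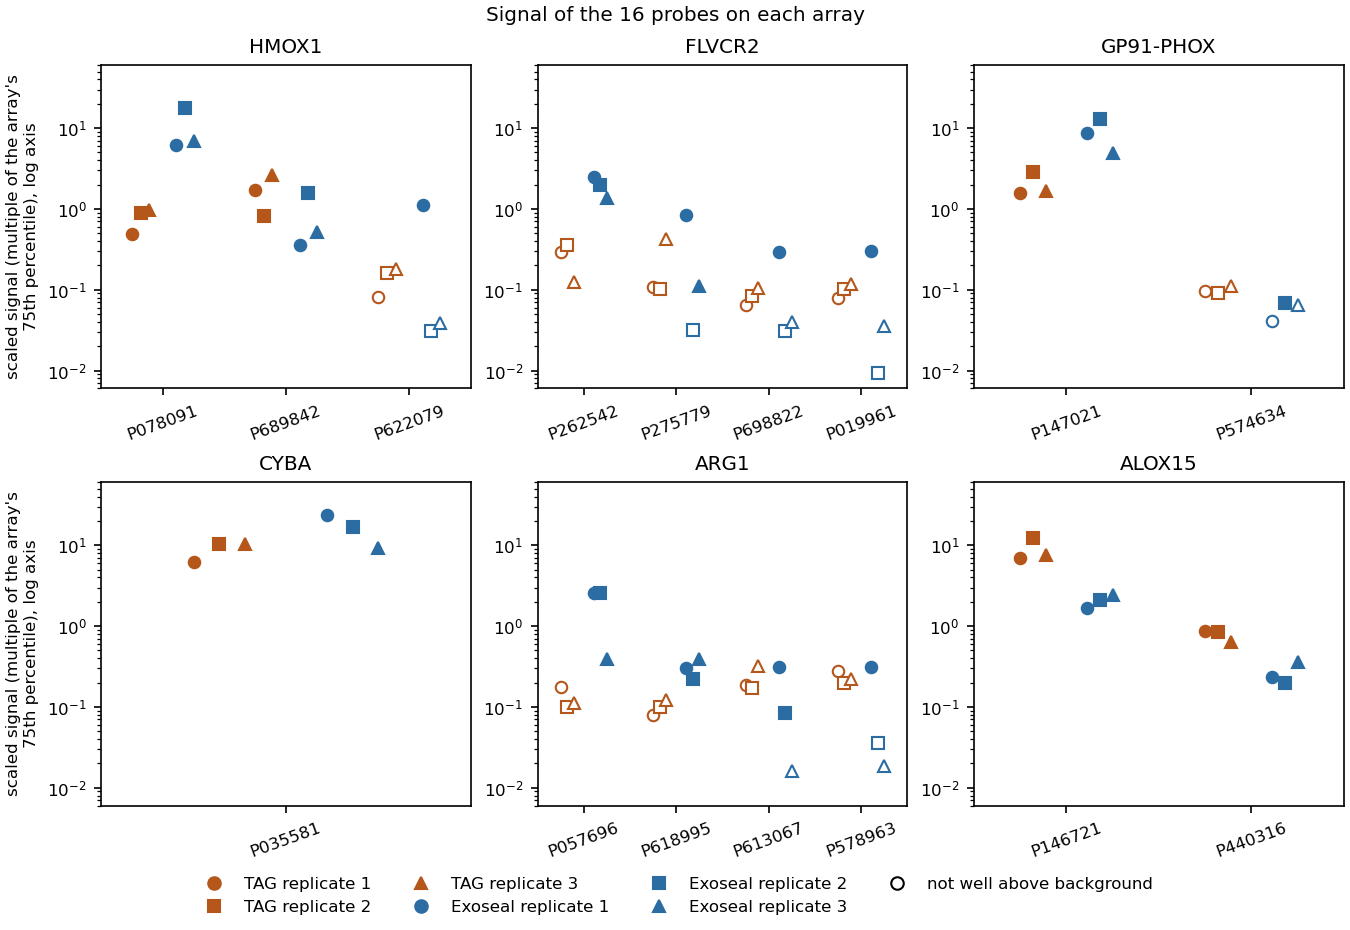
Level of each of the 16 probes (processed signal over the array's 75th percentile, log axis) on the 3 TAG and the 3 Exoseal arrays, with open symbols where the probe was not well above background. HMOX1 A_72_P078091 lay between 0.495 and 0.967 in TAG and between 6.13 and 17.8 in Exoseal, and ALOX15 A_72_P146721 between 6.89 and 12.4 in TAG and between 1.66 and 2.42 in Exoseal.

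Among the 6 probes above background on all 6 arrays, the groups did not overlap for 4. TAG was lower for HMOX1 A_72_P078091 and GP91-PHOX A_72_P147021, a pattern of 14.7% of all probes measured on all 6 arrays. TAG was higher for both ALOX15 probes, a pattern of 24.5% of them. HMOX1 A_72_P689842 and CYBA overlapped. The authors' deposited table of log2 values gave differences of -3.62 for HMOX1 A_72_P078091, 1.40 for HMOX1 A_72_P689842, -1.96 for GP91-PHOX A_72_P147021 and -0.78 for CYBA. For the ALOX15 probes the authors' deposited table gave 2.22 and 1.43. These are the same arrays and no further evidence.

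**Figure D3:**
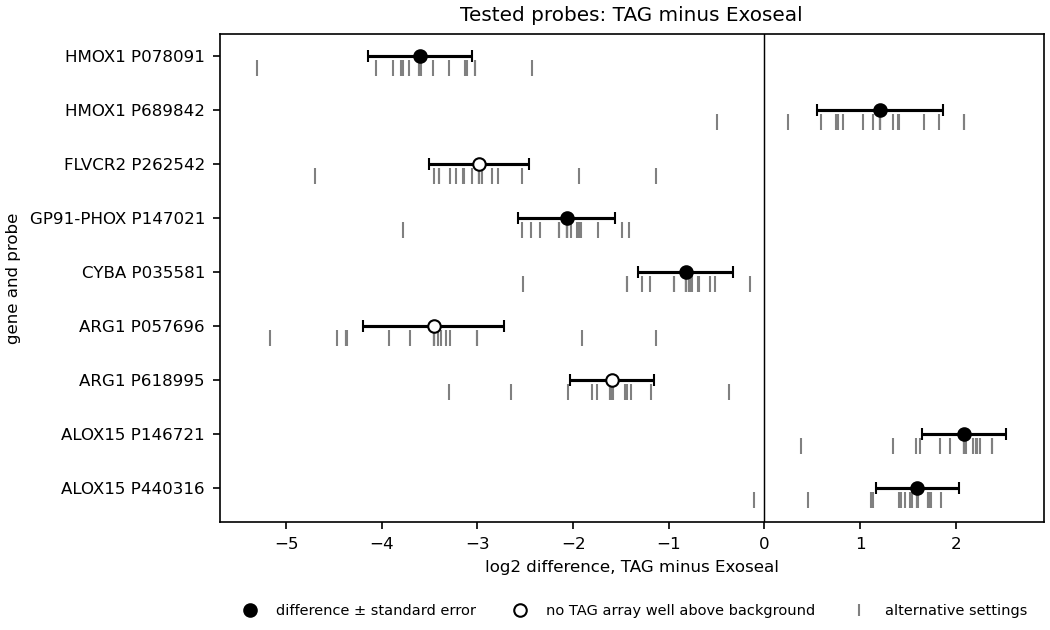
Difference in log2 level, TAG minus Exoseal, for each tested probe (circles, with the standard error; open where no TAG array was well above background, so that the value is no measured fold), with a grey tick for each alternative setting. HMOX1 A_72_P078091 stayed below 0 in 20 of 20 settings, between -5.31 with no scaling and -2.43 with normexp background correction, and ALOX15 A_72_P440316 ended at -0.11 with no scaling.

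Among 1611 other named genes whose brightest probe was tested, the level of GP91-PHOX across the 6 arrays was most like those of HPRT1 (Pearson r = 0.995), ITGB2 (0.994) and LGALS3 (0.991). ITGB2 is the beta-2 integrin of leukocytes and LGALS3 is galectin 3, abundant in macrophages. The genes most like HMOX1 probe A_72_P078091 were TICAM2 (r = 0.991), RBM38 (0.986) and GPI (0.982). Among the genes most like ALOX15 were ACTA1, the skeletal muscle actin, through its brightest probe (0.982), and SLC30A7 (0.982). CYBA was closest to HMGB1 (0.958), LGALS8 (0.956) and SLA-DRA (0.945). FLVCR2 was closest to FABP5 (0.991), APPL1 (0.975) and MMP9 (0.972), and ARG1 to HSPE1 (0.983), CCL2 (0.982) and SMAD4 (0.980), but for both the TAG values behind r were below background. With 6 arrays in 2 groups, genes that separate the groups in the same direction tend to reach a high r, so these values are descriptions.

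Other genes of the same pathways were compared by 1 probe each, where 8.75% of named genes passed (3.04% lower and 5.71% higher in TAG) and the median difference of all tested probes was 0.08. Of 11 tested genes of haem and iron handling 0 rose and 0 fell by limma (1 with an unadjusted p under 0.05), with a median difference of 0.29. TF, transferrin, differed by 1.19 ± 0.46 (limma adjusted p = 0.117). Of 2 tested NADPH oxidase genes 0 passed (0 with an unadjusted p under 0.05). The oxidases DUOX1 and DUOX2 differed by 0.51 ± 0.88 and -0.54 ± 0.79, both smaller than their errors, and the difference of DUOX1 was -1.30 within slide 1. DUOX1 was above background on only 1 of the 3 TAG arrays. NCF1, a cytosolic oxidase subunit, had a probe that was too dim to be tested.

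Among 16 tested antioxidant genes 1 rose and 0 fell, with a median difference of -0.39. The 1 was KEAP1, the adaptor that marks the transcription factor NRF2 for degradation. NRF2 is known to drive HMOX1. KEAP1 had levels of 0.799, 1.22 and 0.537 in TAG arteries, against 0.250, 0.146 and 0.215 in Exoseal arteries, with no overlap. It differed by 2.02 ± 0.48 (limma adjusted p = 0.0345), but was above background on only 2 of the 3 TAG arrays. Within slide 1 the difference was 1.69 and no longer passed.

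Of 9 tested genes of arginine and polyamine metabolism 2 rose and 0 fell, with a median difference of 0.33. OAT, the aminotransferase that takes up ornithine, had levels of 1.05, 0.983 and 0.862 in TAG arteries, against 0.468, 0.224 and 0.103 in Exoseal arteries. It differed by 2.12 ± 0.57 (limma adjusted p = 0.0466), and by 1.04 within slide 1, where it no longer passed. SLC7A2, a transporter of cationic amino acids, had levels of 1.08, 0.514 and 1.76 in TAG arteries, against 0.138, 0.244 and 0.345 in Exoseal arteries. It differed by 2.13 ± 0.58 (limma adjusted p = 0.0469), and by 2.85 within slide 1. The groups did not overlap for either gene. SLC7A2 was above background on only 2 of the 3 Exoseal arrays, so its difference and order rest in part on a value below background. ARG1 itself was above background on no TAG array, so its direction is not set against that of these genes.

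Of 6 tested genes of the lipoxygenase and prostanoid list 0 passed (1 with an unadjusted p under 0.05), with a median difference of 0.21. PTGES, a prostaglandin E synthase, differed by 1.52 ± 0.42 (limma adjusted p = 0.0507), while its other probe gave -1.25. PTGES3 differed by -1.29 ± 0.82 (limma adjusted p = 0.319). The KEAP1, OAT and SLC7A2 calls were lost with median scaling and in each fit that left out 1 array other than Exoseal replicate 1. With no scaling between arrays the differences of KEAP1, OAT and SLC7A2 were 0.31, 0.42 and 0.42, where the median of all tested probes was -1.63. Their higher levels in TAG are thus relative to the rest of each array.

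**Figure D4:**
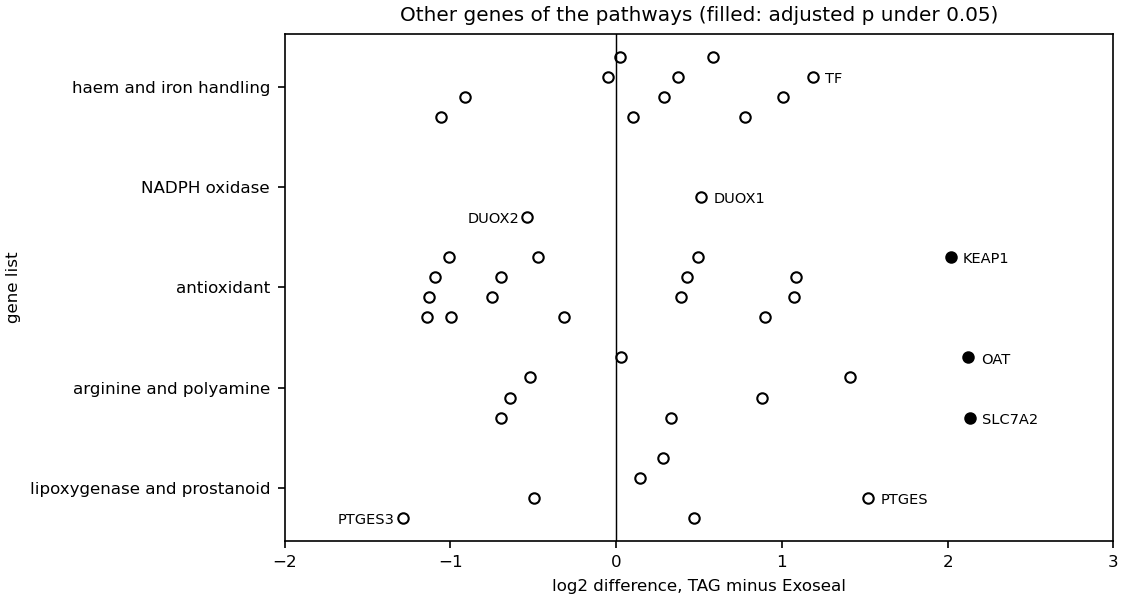
Difference in log2 level, TAG minus Exoseal, of the other genes of each pathway list, with 1 point per tested gene and the line at 0 for no difference. Filled points passed the test, 1 antioxidant gene and 2 arginine genes, and genes above background on no TAG array are shown at their fitted value.

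Some markers of other cell types moved with these genes, and others of the same lists did not. In bulk samples fewer cells of a type and less RNA per cell cannot be told apart. The summed level of 9 macrophage and monocyte markers was 17.6 to 24.9 in TAG arteries, against 47.4 to 86.5 in Exoseal arteries, and did not overlap. Most of the Exoseal sum was LYZ, lysozyme, and AIF1, so the gap rests largely on them. LYZ was at 0.830 to 3.88 in TAG arteries against 17.4 to 47.7 in Exoseal arteries, and AIF1 at 5.13 to 9.18 against 19.0 to 26.8. Of these 9, 3 fell by limma and 0 rose, with differences for LYZ of -3.64 (adjusted p = 0.0239), CD86 of -1.92 (0.0473) and AIF1 of -1.80 (0.0376). CD86 was above background on only 1 of the 3 TAG arrays, so its difference is no measured fold. The other tested probes of LYZ gave -3.52 to -0.91 and that of AIF1 -1.39. The median difference of the 9 was -0.19 (-1.54 within slide 1), 4 were above 0, and TYROBP was above background on no TAG array.

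The 5 neutrophil markers summed to 17.5 to 23.6 in TAG arteries and 29.7 to 44.6 in Exoseal arteries, but the median difference of the 4 tested was 0.03. Most of the gap between the sums was 1 probe of MMP9, a gelatinase, at 2.19 to 3.18 in TAG arteries against 9.20 to 25.2 in Exoseal arteries. MMP9 fell by limma through that probe (-2.58, adjusted p = 0.0249), while its other probe gave -0.23. S100A12 differed by 1.72 the other way (limma adjusted p = 0.0782), S100A8 by 0.38 (0.584) and FCGR3A by -0.32 (0.633), and S100A9 was above background on no TAG array. S100A12 was above background on only 2 of the 3 TAG arrays and S100A8 on 1, so their differences are no measured folds. Which cells expressed the genes described here was not measured, and the part of macrophages or neutrophils in any of their differences was not tested.

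The artery label held for smooth muscle. ACTA2, CNN1, DES and MYLK were above background on all 6 arrays, and their summed level was 448 to 528 in TAG arteries and 247 to 274.0 in Exoseal arteries. ACTA2 rose by 2.22 (limma adjusted p = 0.0246), with 1.82 to 2.54 for its other probes, and DES rose by 1.52 (0.0429), with 0.067 to 2.999 for its other probes. CNN1 differed by 0.73 (limma adjusted p = 0.249) and MYLK by -1.37 (0.136). The part of smooth muscle in the difference of ALOX15 or of any other gene described here was not tested.

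The 3 endothelial markers summed to 4.16 to 8.77 in TAG arteries and 13.3 to 50.8 in Exoseal arteries. CDH5, the endothelial cadherin, fell by limma (-2.47, adjusted p = 0.0322). PECAM1 differed by -1.57 (limma adjusted p = 0.163) and overlapped, with 2.40 for its other probe, and CLDN5 was above background on no TAG array and on 1 Exoseal array.

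The 7 skeletal muscle markers summed to 57.0 to 69.9 in TAG arteries and 20.7 to 37.7 in Exoseal arteries. Most of the TAG sum was 1 probe of ACTA1, at 47.4 to 55.9 in TAG arteries against 7.79 to 10.6 in Exoseal arteries. That probe differed by 2.48 (limma adjusted p = 0.0225), but the 15 other tested ACTA1 probes ranged between -1.94 and 2.37, and their mean with it was 0.30 (adjusted p = 0.819). The median difference of the 7 markers was -0.59, and 4 of them were below 0. The 3 eosinophil and mast cell markers summed to 6.64 to 8.80 in TAG arteries and 8.10 to 12.6 in Exoseal arteries and overlapped. The 6 adipocyte markers overlapped as well, at 82.2 to 94.0 in TAG arteries and 80.5 to 124.9 in Exoseal arteries. The 1 erythroid marker with a probe, HBE1, had levels of 0.279 to 0.737 in TAG arteries, above background on only 1 of the 3 arrays, and 0.227 to 0.486 in Exoseal arteries. The adult globins were not analysed here, so these values say little about red cell content.

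**Figure D5:**
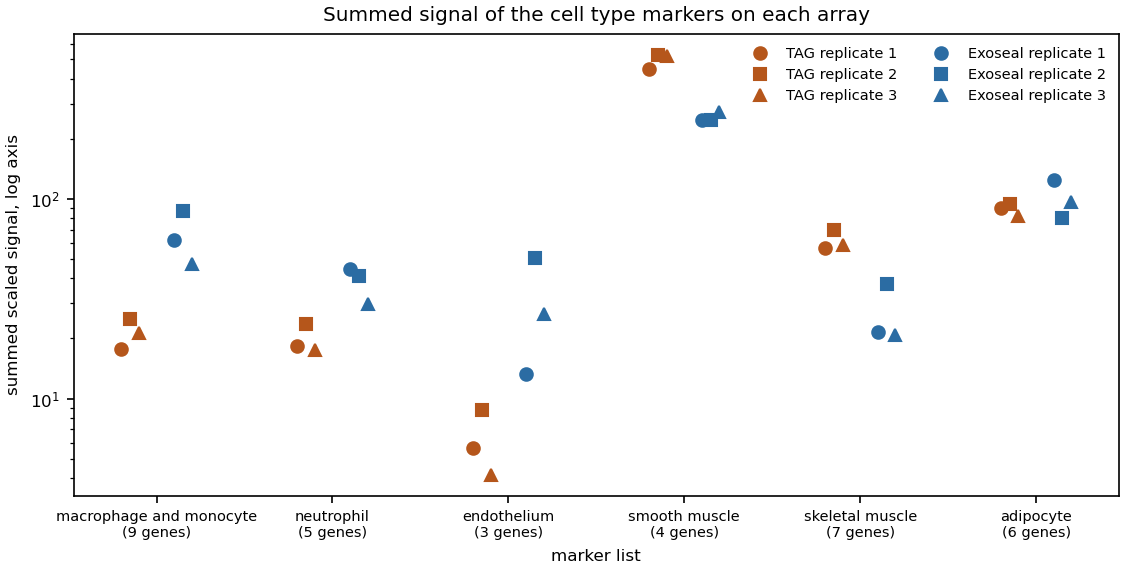
Summed level of 6 marker lists (log axis) on the 3 TAG and the 3 Exoseal arrays. Macrophage and monocyte markers summed to 17.6 to 24.9 in TAG against 47.4 to 86.5 in Exoseal, and smooth muscle markers to 448 to 528 in TAG against 247 to 274.0 in Exoseal. LYZ and AIF1 made up most of the macrophage and monocyte sum in Exoseal.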

How the data were processed

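Per the labels' protocols, Cy3-labelled amplified RNA was hybridised to 1-colour Agilent arrays. The deposited scanner files hold spot intensity from Agilent Feature Extraction 11.0.1.1, per the submitters' processing notes, with background already subtracted in the processed signal. The authors also deposited a table of log2 values, each array with the same median (3.40) and 75th percentile (5.59), which was used as an alternative. The genome build behind the array was not given in the sources used here, and no sequences or coordinates are printed.

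Each array's processed intensity was divided by its 75th percentile and taken to log2. Control spots and 223 probes with outlier flags were left out. Probes well above background on at least 3 arrays were fitted with limma 3.58.1 (R 4.3.3), TAG against Exoseal, and p-values were adjusted by Benjamini-Hochberg over all 22722 tested probes. The fit was tested on simulated data. A gene of a list is represented by its probe with the highest mean signal. No spot was saturated, and the number of arrays limits the precision.

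The members and the gene and marker lists were chosen with earlier results of these data known. All probes of the 6 genes are named. In each pathway list up to 4 genes that passed are named, those with the largest difference, or with none the 2 tested genes with the smallest p. For each gene the 3 named genes with the highest Pearson r over the 6 arrays are given. Some genes these rules name are not reported here.

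Alternatives were other scalings, background correction and filters, the slide or the replicate number as a block, and leaving out each array. Normexp correction on the median signal and no scaling between arrays were added after seeing the data.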

Additional observations from a re-analysis of the deposited data

How the results depend on the processing

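Of the 6 probes above background on all 6 arrays, 4 had the same direction in every setting that gave a value, the exceptions being HMOX1 A_72_P689842 (-0.50) and ALOX15 A_72_P440316 (-0.11), both with no scaling between arrays. Passing the test was less stable. Over all probes, where 2443 passed, 1049 passed with median scaling (46.9% of them higher in TAG, against 65.7% with the 75th percentile), 1580 with normexp, 10944 with no scaling (2.18% higher), 3151 with quantile scaling (51.7% higher), 3781 with Exoseal replicate 1 counted as TAG, and 0 by limma with no filter (14128 with an unadjusted p under 0.05, over 43380 probes). Leaving out each array gave 0 to 7717 probes, the 0 holding for all but Exoseal replicate 1 (4573 to 6426 with an unadjusted p under 0.05). Replicate numbers were shared by the groups. The deviations of same-numbered arrays from their group means correlated at -0.18, 0.09 and -0.07, and those of different-numbered arrays at -0.17 to 0.21. With so few arrays per group these values cannot tell whether the numbers pair the samples. The replicate block left 0 probes (6381 with an unadjusted p under 0.05), 0 antioxidant and 0 arginine genes. In the lists, where haem had 0, NADPH oxidase 0, antioxidant 1, arginine 2 and lipoxygenase 0 genes, median scaling and no filter left antioxidant 0 and arginine 0. The 75th percentile of probes above background on all arrays left arginine 1 and lipoxygenase 1, normexp left arginine 1, and quantile scaling gave antioxidant 2. No scaling gave haem 4, NADPH oxidase 1, antioxidant 9 and lipoxygenase 2. The filter of all 6 arrays gave antioxidant 0 and lipoxygenase 1, the authors' table lipoxygenase 1, the slide block antioxidant 0 and arginine 1, and slide 1 alone NADPH oxidase 1 and antioxidant 2. Exoseal replicate 1 counted as TAG gave haem 2 and arginine 1. Leaving out each array gave haem 0 to 2, antioxidant 0 to 4, arginine 0 to 2 and lipoxygenase 0 to 2 genes. DUOX1 reversed to -0.040 with normexp, -0.42 with quantile scaling, -1.20 with no scaling, -0.029 in the authors' table, -1.30 with the slide block and within slide 1, and ranged between -0.18 (without Exoseal replicate 2) and 1.42 (without Exoseal replicate 1) as arrays were left out, being -0.032 without TAG replicate 1. DUOX2 became 0.58 with Exoseal replicate 1 counted as TAG and 0.12 without that array, the other end of its leave-one-out range being -1.54 without Exoseal replicate 3. With no scaling TF was -0.52 and PTGES -0.19, and PTGES3 was 0.000895 with the slide block and within slide 1. The causes were not tested. Signal over background limits the 10 probes that no TAG array measured.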
